A study of Mus musculus with 6 samples.

Results

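The genes described here are 10 members of the LIF, CNTF and gp130-STAT3 signalling route, read by symbol from a deposited table of 22322 genes of mouse neural stem progenitor cells. They are the ligand genes Lif, Clcf1, Cntf and Il6, the receptor genes Lifr, Osmr, Cntfr and Il6st, the transcription factor gene Stat3 and the feedback inhibitor gene Socs3. All 10 members have a row in the table, and 9 had enough counts to be tested, Il6 being the exception. The cells were wild type and were treated for 24 h with PTN or with PBS, the Control, with 3 libraries in each group and no other agent or allele in the labels. PTN is given only as an abbreviation in the labels and is read here as pleiotrophin, a secreted heparin-binding growth factor. The series title places the treatment in conditioned medium, with no further detail. The labels do not say from which animals, brain region or cultures the cells came, so each p-value reflects only how these libraries spread, which may be technical.

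Cytokines of the interleukin 6 family signal through the shared receptor chain gp130, the product of Il6st. LIF pairs gp130 with LIFR, CNTF and CLCF1 first bind the membrane-anchored receptor CNTFR and then recruit LIFR and gp130, and oncostatin M uses OSMR with gp130. The receptor-bound JAK kinases phosphorylate STAT3, which enters the nucleus and switches on target genes, among them Socs3, whose product blocks the receptor complex in turn. In neural progenitors this route is known for promoting self-renewal and, later in development, the formation of astrocytes.

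Library totals lay between 19267764 and 26341745 expected counts, so that 1 CPM, a count scaled to the TMM-adjusted library total, stands for about 19.2 to 26.2 counts. PTN 3 and PTN 2 each stood apart from their group in other genes. Summed transcripts of the Y-linked genes Uty, Kdm5d, Ddx3y and Eif2s3y came to 49.3, 102 and 80.3 CPM in Control 1, Control 2 and Control 3. They came to 30.3, 74.2 and 7.96 CPM in PTN 1, PTN 2 and PTN 3, so PTN 1 and PTN 3 lay below every Control library. The part of the sex of the cells in the results below was not tested. PTN 2 had 1685 CPM of Gfap, the astrocyte filament gene, against 342 and 414 CPM in PTN 1 and PTN 3. Members that rest on PTN 2 or PTN 3 are given with and without that library. Markers of neural stem progenitor cells were present in all 6 libraries, with a summed level of 4250 to 5447 CPM in Control and 5492 to 6576 CPM in PTN over 12 genes. Microglia and macrophage markers summed to 5.11 to 6.61 CPM in Control and 5.01 to 6.14 CPM in PTN over 13 genes, 11 of which stayed under 1 CPM in every library, Aif1, Cx3cr1, Tmem119, Csf1r and Ptprc among them. Astrocyte markers, 10 in number, summed to 9609 to 9900 CPM in Control and 3944 to 8160 CPM in PTN, and 3 of them fell. None passed as higher. Gfap, Aldoc, Gjb6, Aldh1l1 and Fgfr3 were lower in every PTN library than in any Control library, while S100b, at up to 4.77 CPM, was higher. Aqp4, Gja1 and Sparcl1 had their highest value of all 6 libraries in PTN 2. Endothelial and mural markers summed to 50.3 to 59.8 CPM in Control and 22.5 to 37.9 CPM in PTN, with Cdh5, Cldn5, Tek, Kcnj8 and Abcc9 under 1 CPM everywhere. Of these 11 genes 1 fell, Pdgfrb, and none passed as higher. Most of that sum was Flt1, at 36.2 to 43.3 CPM in Control and 9.85 to 23.2 CPM in PTN, while Kdr and Cdh5, at up to 2.81 and 0.832 CPM, were higher in every PTN library than in any Control library, Kdr without passing the test and Cdh5 not tested. Kcnj8 was higher in the same way, at only up to 0.535 CPM. Fibroblast and meningeal markers summed to 123 to 140 CPM in Control and 51.0 to 73.2 CPM in PTN, with Dcn, Lum and Slc47a1 under 1 CPM everywhere. In that list 2 genes fell and 1 rose, Foxc1, which was at 5.58 to 5.90 CPM in Control and 9.01 to 19.01 CPM in PTN. Most of its sum was Pdgfra, also a gene of oligodendrocyte progenitors, at 81.6 to 103 CPM in Control and 11.3 to 36.4 CPM in PTN. Oligodendrocyte lineage markers summed to 1322 to 1513 CPM in Control and 1139 to 1499 CPM in PTN. Of these 10 genes 1 rose and 2 fell. Pdgfra, Cspg4 and Sox10 were lower in every PTN library than in any Control library and Opalin, at up to 4.77 CPM, higher. Neuron markers summed to 264 to 397 CPM in Control and 312 to 524 CPM in PTN, and 1 of 10 rose. Ependyma and choroid plexus markers summed to 78.3 to 99.0 CPM in Control and 67.1 to 121 CPM in PTN, none called. The part of these markers in the results below was not tested, and in bulk RNA fewer cells of a type and less RNA per cell cannot be told apart.

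In all, 2 members rose after PTN. Lif, the ligand gene, was 2.62-fold higher and Socs3, the feedback inhibitor gene, was 1.55-fold higher (n = 3 each). No member passed as lower, and the 7 other tested members, Stat3 and the shared receptor gene Il6st among them, did not pass the test. Of all 13161 genes tested, 1052 were called by edgeR's quasi-likelihood test at a Benjamini-Hochberg adjusted p under 0.05. That is 7.99%, or 4.93% higher and 3.06% lower in PTN, beside 2 of 9 members, both higher. Members had a median log2 fold change of 0.63, the value of Socs3, against 0.030 for all genes tested. Of the members 8 were positive and 1 negative, beside 6915 positive and 6246 negative of all 13161 genes tested. Members were chosen with earlier results of these data known, so these shares are no test of the route.

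The sequences before the transcription starts of the 2 members that rose are shown because Socs3 is a textbook STAT3 target and Lif is the ligand that feeds the route. Each is the 250 bases before the RefSeq start on GRCm38.p6, written 5′ to 3′ on the gene's own strand. Capitals mark matches to TTCNNNGAA, the core recognised by STAT proteins, or to TGANTCA. The latter allows any middle base and so takes in, but is looser than, the core recognised by AP-1 proteins. Both motifs are their own reverse complement, so that one search covers both strands, and the matches do not overlap.
Lif, chr11:4257318-4257567, plus strand: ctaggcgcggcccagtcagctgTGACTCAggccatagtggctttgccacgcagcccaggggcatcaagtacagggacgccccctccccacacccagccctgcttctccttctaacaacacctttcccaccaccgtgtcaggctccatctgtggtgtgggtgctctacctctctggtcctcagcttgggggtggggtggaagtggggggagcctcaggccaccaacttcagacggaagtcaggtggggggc
Socs3, chr11:117969367-117969616, minus strand: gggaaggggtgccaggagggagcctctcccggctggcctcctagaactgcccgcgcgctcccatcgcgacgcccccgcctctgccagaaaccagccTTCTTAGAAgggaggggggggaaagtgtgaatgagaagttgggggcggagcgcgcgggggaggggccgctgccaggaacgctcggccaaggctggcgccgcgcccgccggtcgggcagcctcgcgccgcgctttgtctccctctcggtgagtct
The Lif window holds 1 AP-1 match, which begins 228 bases before the start, and no STAT match. The Socs3 window holds 1 STAT match, which begins 154 bases before the start, and no AP-1 match. The coding transcript of Socs3 in GENCODE M21 starts 180 bases downstream of this RefSeq start, so sequence directly before that second start is outside the window. A GENCODE transcript of Lif starts at base 4257557, so the last bases of the Lif window lie within it, and a second one starts 9527 bases downstream of the RefSeq start, outside the window. Windows were found for 9 of the 10 members, 15 windows in all, Clcf1 having none. A STAT match stood in the only window of 1 member, Socs3, and an AP-1 match in the only window each of 3, Lif, Il6 and Cntf. Over all 32851 windows of the same length in the RefSeq table, 7.02% held a STAT match and 6.75% an AP-1 match. These shares are per window and not per member. A match describes these letters only, and its absence says nothing of what binds there.

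Of the ligand genes, Lif (ENSMUSG00000034394) was at 6.97, 6.69 and 7.07 CPM in Control 1, Control 2 and Control 3 and at 18.2, 9.50 and 26.6 CPM in PTN 1, PTN 2 and PTN 3. All PTN libraries were above all Control libraries, and the PTN libraries differed from each other by 2.80-fold, those of Control by 1.06-fold. The mean was 6.91 ± 0.197 CPM in Control and 18.1 ± 8.54 CPM in PTN (SD, n = 3 each). On the log2 scale this is a difference of 1.39 ± 0.33 (SE), with a 95% interval of 0.64 to 2.14 and an edgeR adjusted p of 0.0382. Without PTN 2 the rise was 3.24-fold (edgeR adjusted p = 0.00602) and without PTN 3 it was 2.01-fold (edgeR adjusted p = 0.0377). In edgeR the adjusted p was above the threshold when Control 1 (0.129), Control 2 (0.109), Control 3 (0.127) or PTN 1 (0.0992) was left out, with folds of 2.49 to 2.61. It was 0.0676 by limma-voom and 0.0667 in edgeR with a trend on gene length removed.

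**Figure D1:**
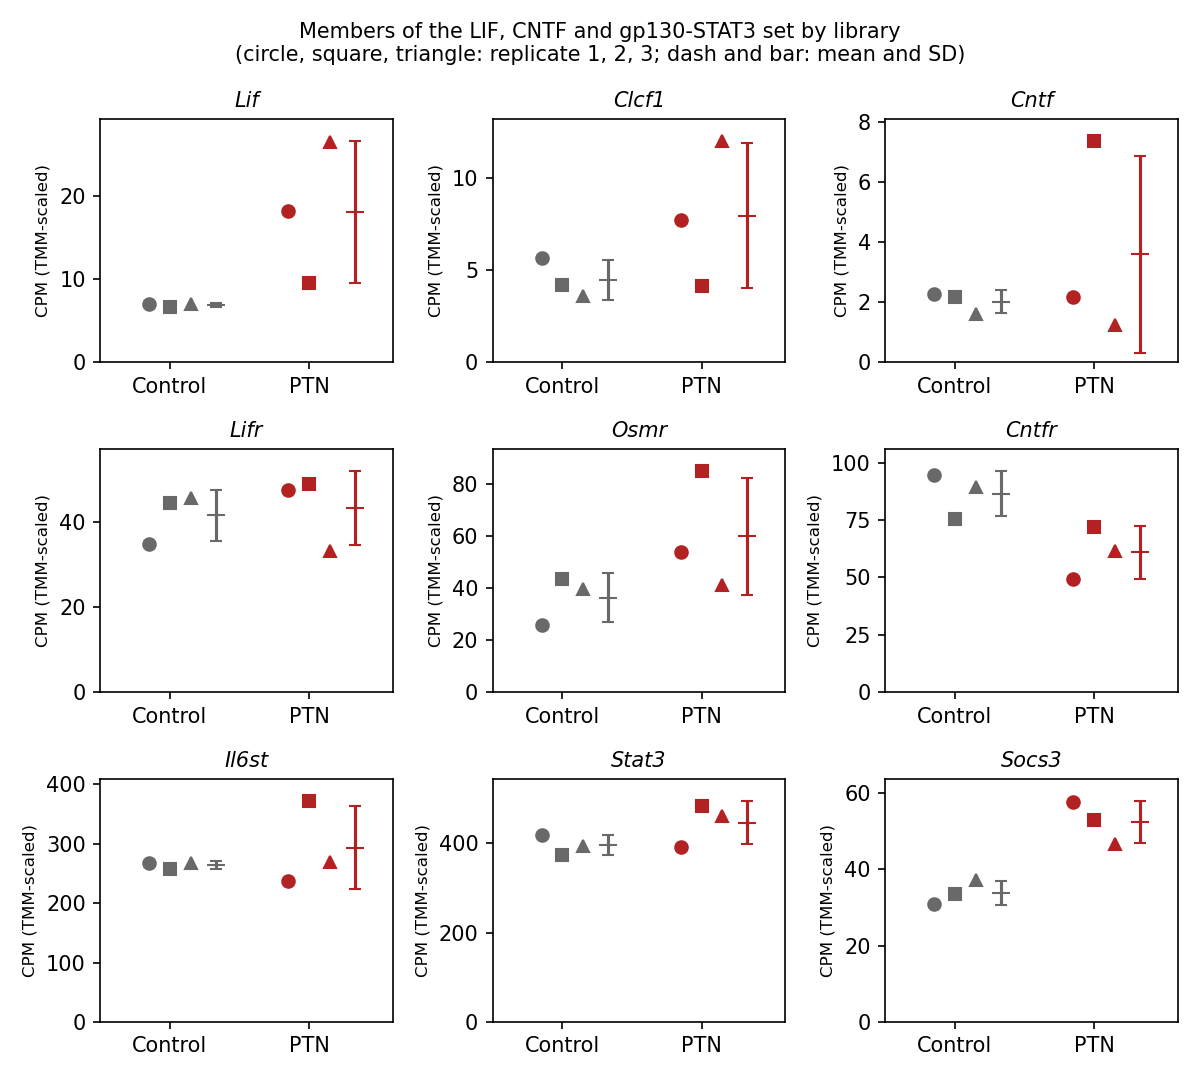
CPM scaled by TMM in each of the 6 libraries for the 9 tested members, with Control in grey and PTN in red, circle, square and triangle standing for replicates 1, 2 and 3, and dash and bar for the mean and SD of 3 libraries. The PTN libraries of Lif (9.50 to 26.6 CPM) and Socs3 (46.6 to 57.6 CPM) all sit above the Control libraries, those of Cntfr all below, and those of the other 6 genes overlap with Control.

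Clcf1 encodes a second ligand, which binds CNTFR. It was at 5.66, 4.17 and 3.56 CPM in Control 1, Control 2 and Control 3 and at 7.72, 4.15 and 11.96 CPM in PTN 1, PTN 2 and PTN 3. As for Lif, PTN 3 was highest and PTN 2 lowest of the PTN libraries, but PTN 2 lay within the Control range. It did not pass the test (log2 difference 0.83 ± 0.37 SE, 95% interval -0.010 to 1.66, edgeR adjusted p = 0.19, n = 3 each). Without PTN 2 the edgeR adjusted p was 0.0542, and without PTN 3 it was 0.36.

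Cntf, the ciliary neurotrophic factor gene, had 54, 57 and 34 counts in the 3 Control libraries and 56, 165 and 24 counts in PTN 1, PTN 2 and PTN 3. PTN 2 was the high library, at 7.36 CPM, while PTN 1 and PTN 3, at 2.17 and 1.25 CPM, lay within or below the Control range of 1.59 to 2.28 CPM. The log2 fold change of 0.83 ± 0.58 (SE, n = 3 each) was not called (edgeR adjusted p = 0.363) and turned to -0.23 without PTN 2 (edgeR adjusted p = 0.714). In GENCODE M21 78.9% of the exon bases of Cntf also belong to Zfp91 on the same strand, and some Cntf counts are fractional, so its counts are uncertain. Zfp91 itself had 2521, 4142 and 3061 counts in Control and 4792, 3945 and 2674 in PTN, with PTN 2 between the other PTN libraries. Il6, the founding cytokine gene of the family, had 1 count in Control 3 and 0 in the other 5 libraries. A count of 0 allows up to 3 counts, or 0.115 to 0.156 CPM in these libraries, for counting error only.

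Among the receptor genes, Osmr, the oncostatin M receptor gene, was at 25.7, 43.5 and 39.5 CPM in Control 1, Control 2 and Control 3 and at 53.7, 84.7 and 41.0 CPM in PTN 1, PTN 2 and PTN 3. PTN 1 and PTN 2 were above all Control libraries and PTN 3 was within their range. The log2 fold change was 0.72 ± 0.29 (SE, n = 3 each) with a 95% interval of 0.068 to 1.38, and it was not called (edgeR adjusted p = 0.156). Without PTN 3 the difference passed, at 1.91-fold higher (edgeR adjusted p = 0.041). Without PTN 2, its highest library, it was 1.31-fold (edgeR adjusted p = 0.385). Without Control 1, the lowest Control library, it was 1.42-fold (edgeR adjusted p = 0.427).

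Cntfr, the receptor gene for CNTF and CLCF1, was at 94.5, 75.5 and 89.4 CPM in Control 1, Control 2 and Control 3 and at 49.3, 72.1 and 61.4 CPM in PTN 1, PTN 2 and PTN 3. All PTN libraries lay below all Control libraries. The log2 fold change of -0.51 ± 0.18 (SE, n = 3 each) had a 95% interval of -0.91 to -0.10 but did not pass across all genes (edgeR adjusted p = 0.117, and 0.0735 to 0.296 without any 1 library). Groups that do not overlap were seen in 3 of the 9 tested members, Lif, Socs3 and Cntfr, and in 32.9% of all genes tested, so the members' share lies near that background.

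Lifr, the LIF receptor gene, was at 34.7, 44.3 and 45.4 CPM in Control 1, Control 2 and Control 3 and at 47.5, 48.7 and 33.1 CPM in PTN 1, PTN 2 and PTN 3. The groups overlapped, and the log2 fold change of 0.056 had a 95% interval of -0.38 to 0.49 (edgeR adjusted p = 0.861, n = 3 each). Il6st, the gene of the shared chain gp130, was at 268, 257 and 268 CPM in Control and at 238, 372 and 270 CPM in PTN 1, PTN 2 and PTN 3. Only PTN 2 stood clearly above Control, and the log2 fold change of 0.15 had a 95% interval of -0.26 to 0.56 (edgeR adjusted p = 0.605). Without PTN 2 it was -0.058. With a trend on gene length removed, the values of Lifr and Il6st were -0.23 and -0.099, neither called.

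Stat3, the transcription factor gene of the route, was at 419, 374 and 393 CPM in Control 1, Control 2 and Control 3 and at 392, 484 and 462 CPM in PTN 1, PTN 2 and PTN 3. The groups overlapped through PTN 1. The log2 fold change of 0.17 ± 0.15 (SE, n = 3 each) was not called (edgeR adjusted p = 0.445), and its 95% interval of -0.16 to 0.50 leaves out a change of 2-fold in either direction. These are transcript levels and do not measure phosphorylated STAT3.

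Socs3 (ENSMUSG00000053113), the feedback inhibitor gene, was at 30.9, 33.4 and 37.1 CPM in Control 1, Control 2 and Control 3 and at 57.6, 52.8 and 46.6 CPM in PTN 1, PTN 2 and PTN 3. All PTN libraries were above all Control libraries. Unlike Lif, it varied little within PTN, by 1.24-fold. The mean was 33.8 ± 3.13 CPM in Control and 52.3 ± 5.53 CPM in PTN (SD, n = 3 each). The log2 difference was 0.63 ± 0.15 (SE), with a 95% interval of 0.29 to 0.97 and an edgeR adjusted p of 0.0379. The edgeR adjusted p was 0.144, 0.14 and 0.132 when Control 1, 2 or 3 was left out, 0.12 and 0.068 when PTN 1 or PTN 2 was, and 0.0222 when PTN 3 was, while the rise stayed between 1.46-fold and 1.63-fold. Each such refit has 3 residual degrees of freedom among its 5 libraries.

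On the per-length scale of FPKM, which allows levels of different genes to be set side by side, the order of the members in Control was Stat3 (92.0 ± 5.32), Cntfr (44.3 ± 5.36), Il6st (43.2 ± 1.09), Socs3 (13.3 ± 1.24), Osmr (6.79 ± 1.79), Lifr (5.98 ± 0.904), Clcf1 (2.42 ± 0.595), Cntf (1.89 ± 0.352) and Lif (1.79 ± 0.0889), all as mean FPKM with SD of 3 libraries. Il6 was at 0 or 0.07 FPKM. Receptor and transducer genes thus stood above all 4 ligand genes. The ranges overlapped for the neighbours Cntfr and Il6st, Osmr and Lifr, Clcf1 and Cntf, and Cntf and Lif. In PTN Il6st (47.5 ± 11.9 FPKM) stood above Cntfr (31.4 ± 6.09 FPKM) without overlap. There Lifr, Lif, Clcf1 and Cntf, at 5.66, 4.68, 4.29 and 3.36 FPKM, overlapped each with its neighbour.

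**Figure D2:**
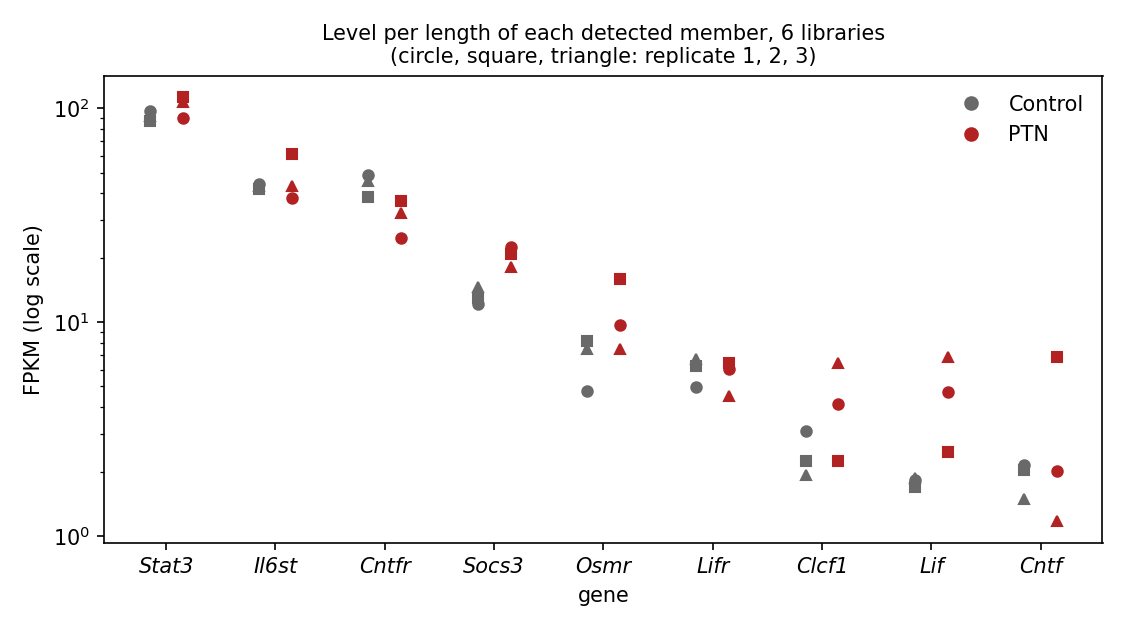
Deposited FPKM of the 9 members with more than 1 count, on a log axis, in the order of their mean, with Control in grey, PTN in red and circle, square and triangle for replicates 1, 2 and 3. Stat3 stands highest, at 86.8 to 113 FPKM, and Cntf in PTN 3 lowest, at 1.17 FPKM, with the Control libraries of Lif and Cntf between 1.49 and 2.15 FPKM.

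Members did not vary in the same way among the 3 PTN libraries. Lif and Clcf1 were lowest in PTN 2, at 0.43 and -0.073 log2 units from the Control mean, and highest in PTN 3, at 1.87 and 1.35. Cntf and Osmr were highest in PTN 2, at 1.65 and 1.25 log2 units from the Control mean, and lowest in PTN 3, at -0.51 and 0.21. In all, 6 of the 9 tested members had their highest PTN value in PTN 2, namely Lifr, Il6st, Osmr, Cntf, Cntfr and Stat3, 2 in PTN 3 and 1 in PTN 1. Of the 68 tested genes of the other pathway lists, 13 were highest in PTN 1, 20 in PTN 2 and 35 in PTN 3. PTN 2 is also the library with the most Gfap in PTN, and whether the mixture of cells differs in it was not tested.

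**Figure D3:**
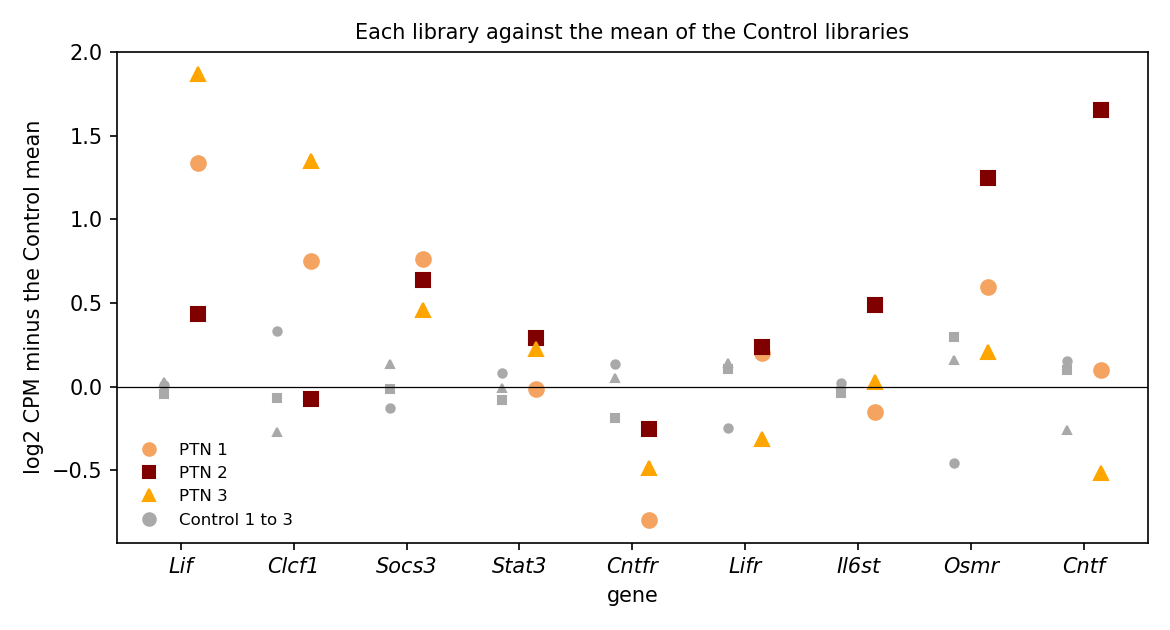
Log2 CPM of each library minus the mean of the 3 Control libraries, for the 9 tested members, with Control libraries in grey and PTN libraries in colour by number. PTN 2, the dark square, is the lowest PTN library for Lif and Clcf1 and the highest for Cntf (1.65) and Osmr (1.25), while the 3 PTN values of Socs3 lie between 0.46 and 0.76.

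Genes most like a member in pattern were taken as the 5 with the smallest root mean square difference of log2 CPM over the 6 libraries, each gene centred on its own mean, among 12171 candidates. For Socs3 they were Adamts4, Zfp90, Cobll1, Otud7b and Rap2b, with differences of 0.046 to 0.060 log2 units. Adamts4 encodes a secreted protease that cuts proteoglycans and averaged 47.0 ± 2.61 CPM in Control libraries and 72.4 ± 9.05 CPM in those with PTN (SD, n = 3 each). For Lif they were Hbegf, Slc2a9, Adrb1, Tnc and Shb, with differences of 0.10 to 0.15 log2 units. Hbegf, an EGF receptor ligand gene, was at 73.7, 56.7 and 65.6 CPM in Control and at 153, 88.4 and 245 CPM in PTN 1, PTN 2 and PTN 3. Tnc, the tenascin C matrix gene, was at 452, 352 and 442 CPM in Control and at 1073, 576 and 1332 CPM in PTN. Like Lif, both were highest in PTN 3 and lowest of the PTN libraries in PTN 2, which their selection by likeness to Lif favours.

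Of 12 other ligand and receptor genes of the gp130 family only 5 were tested, and 1 rose, beside 4.93% of all genes called higher, with a median log2 fold change of -0.29 over the 5 beside 0.030. Il6ra, which encodes the receptor that binds interleukin 6, was at 6.04, 5.31 and 6.83 CPM in Control 1, Control 2 and Control 3 and at 14.5, 17.6 and 12.8 CPM in PTN 1, PTN 2 and PTN 3. It was 2.47-fold higher without overlap of the groups (log2 fold change 1.31 ± 0.20 SE, edgeR adjusted p = 0.00701, n = 3 each), and it passed without any 1 library, at an edgeR adjusted p of 0.00458 to 0.0435. The transcript of its ligand, Il6, was at or under 1 count in every library. Il11ra1, the interleukin 11 receptor gene, singled out after its values were seen, averaged 29.1 CPM in Control and 19.6 CPM in PTN and was not called (edgeR adjusted p = 0.157, n = 3 each). Without PTN 3 a second gene of this list was called, lower in PTN. The genes left out of the test for low counts were Il11, Osm, Ctf2, Il27, Ebi3, Il11ra2 and Il31ra, of which Osm, the ligand gene for OSMR, was at or under 1 count in every library.

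The next list held 27 tested genes of JAK kinases, other STAT factors, SOCS and PIAS proteins, phosphatases and the adaptors Grb2, Gab1 and Sh2b3. Of these, 2 fell and 1 rose, or 11.1% called beside 7.99% of all genes, with a median log2 fold change of 0.11. The 2 that fell are the paired STAT5 genes. Stat5a was at 25.2, 20.4 and 23.1 CPM in Control 1, Control 2 and Control 3 and at 4.93, 4.50 and 6.81 CPM in PTN 1, PTN 2 and PTN 3. It was 4.24-fold lower, with all PTN libraries far below Control (log2 fold change -2.08 ± 0.21 SE, edgeR adjusted p = 0.00187, n = 3 each). Stat5b, its neighbour gene and close paralogue, was at 55.0, 46.2 and 50.4 CPM in Control and at 23.8, 24.6 and 30.4 CPM in PTN, 1.92-fold lower (edgeR adjusted p = 0.0101). Both passed without any 1 library, at an edgeR adjusted p of up to 0.012 for Stat5a and up to 0.0483 for Stat5b. Counts of Stat5a and of Stat5b are fractional in all 6 libraries, and how reads shared by paralogues were assigned remains not given in the sources used here. Stat5a also overlaps Stat3 on the opposite strand in GENCODE M21, over 72 exon bases, or 0.756% of the exon bases of Stat3.

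Cish and Socs2, inhibitor genes known as STAT5 targets and singled out here after their values were seen, were at 4.06 and 1.06 CPM in Control and at 3.11 and 1.55 CPM in PTN, and neither was called (edgeR adjusted p = 0.324 and 0.325). Their 95% intervals on the log2 scale, -0.93 to 0.17 and -0.24 to 1.36, take in changes in both directions. Jak3, a kinase gene better known from lymphocytes, was 1.90-fold higher, at 7.84, 8.83 and 12.4 CPM in PTN against 4.13 to 5.62 CPM in Control. Its edgeR adjusted p of 0.0498 lay at the threshold and rose to between 0.0588 and 0.167 without any 1 library, as well as to 0.0589 with upper-quartile scaling, 0.0519 with library totals, 0.0575 by limma-voom and 0.107 with the length trend removed. The kinases that serve gp130, named here for that role, were not called. Jak1 was at 174 and 188 CPM, Jak2 at 59.5 and 88.2 CPM and Tyk2 at 26.8 and 21.2 CPM in Control and PTN, with edgeR adjusted p of 0.662, 0.218 and 0.226.

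Of 36 tested genes reported as STAT3 targets in various cell types, 9 rose and 1 fell, or 27.8% called beside 7.99% of all genes, with a median log2 fold change of 0.66 beside 0.030. Many of these genes also answer to other signals, and the list was compiled with results of these data known. The 6 of smallest p all rose. Timp1, a protease inhibitor gene, was at 39.6, 35.1 and 33.3 CPM in Control and 81.4, 67.3 and 75.1 CPM in PTN, 2.07-fold higher (edgeR adjusted p = 0.00578, n = 3 each). Fosl2, an AP-1 factor gene, was also 2.07-fold higher (edgeR adjusted p = 0.00665). The PTN libraries of both lay well above Control, and both passed without any 1 library.

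Ccl2, a chemokine gene, had 12, 3 and 11 counts in Control and 127, 58 and 266 in PTN, 18.8-fold higher (edgeR adjusted p = 0.0117, but 0.0507 without Control 1). Its fold was 10.01 without PTN 3. The interleukin 1 receptor gene Il1r1 (2.11-fold), the transcription factor gene Cebpd (2.12-fold) and the hyaluronan receptor gene Cd44 (1.65-fold) rose with edgeR adjusted p of 0.0139, 0.0172 and 0.0276. When Control 1, 2 or 3 was left out these p-values were 0.0622, 0.0645 and 0.0534 for Il1r1, 0.0567, 0.0814 and 0.0878 for Cebpd and 0.105, 0.0954 and 0.103 for Cd44, and that of Cd44 was 0.0837 without PTN 1.

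The 3 other genes of the list that rose, Vim, Mcl1 and C3, and the 1 that fell, Gfap, were named after their values were seen. Vim, the intermediate filament gene, was higher by 0.58 on the log2 scale (edgeR adjusted p = 0.0482), Mcl1, a survival gene, 1.62-fold (edgeR adjusted p = 0.0324) and C3, the complement gene, 4.10-fold (edgeR adjusted p = 0.0417). All 3 lost their call when Control 1, 2 or 3 was left out, as did Vim and Mcl1 when PTN 1 was and C3 when PTN 2 was, with edgeR adjusted p of up to 0.209, 0.146 and 0.142. Vim was also not called with upper-quartile scaling (edgeR adjusted p = 0.0644), Mcl1 and C3 with the length trend removed (edgeR adjusted p = 0.0520 and 0.0761), and C3 by limma-voom (adjusted p = 0.0988).

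Gfap, the classic astrocyte target of the route, was at 3740, 3614 and 3601 CPM in Control and at 342, 1685 and 414 CPM in PTN 1, PTN 2 and PTN 3, so it moved against Socs3. It was 4.49-fold lower (edgeR adjusted p = 0.047). Leaving out Control 1, 2 or 3 or PTN 1 brought that p to between 0.0929 and 0.13, removing the length trend brought it to 0.0578, and with PTN 2 left out the fall was 9.67-fold. Serpina3n, a reactive astrocyte gene also singled out after the fact, was at 211, 569 and 202 CPM in PTN 1, PTN 2 and PTN 3 against 188 to 215 CPM in Control and was not called. Target genes called numbered 2, 3 and 3 when Control 1, 2 or 3 was left out, and 9, 15 and 13 when PTN 1, 2 or 3 was.

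**Figure D4:**
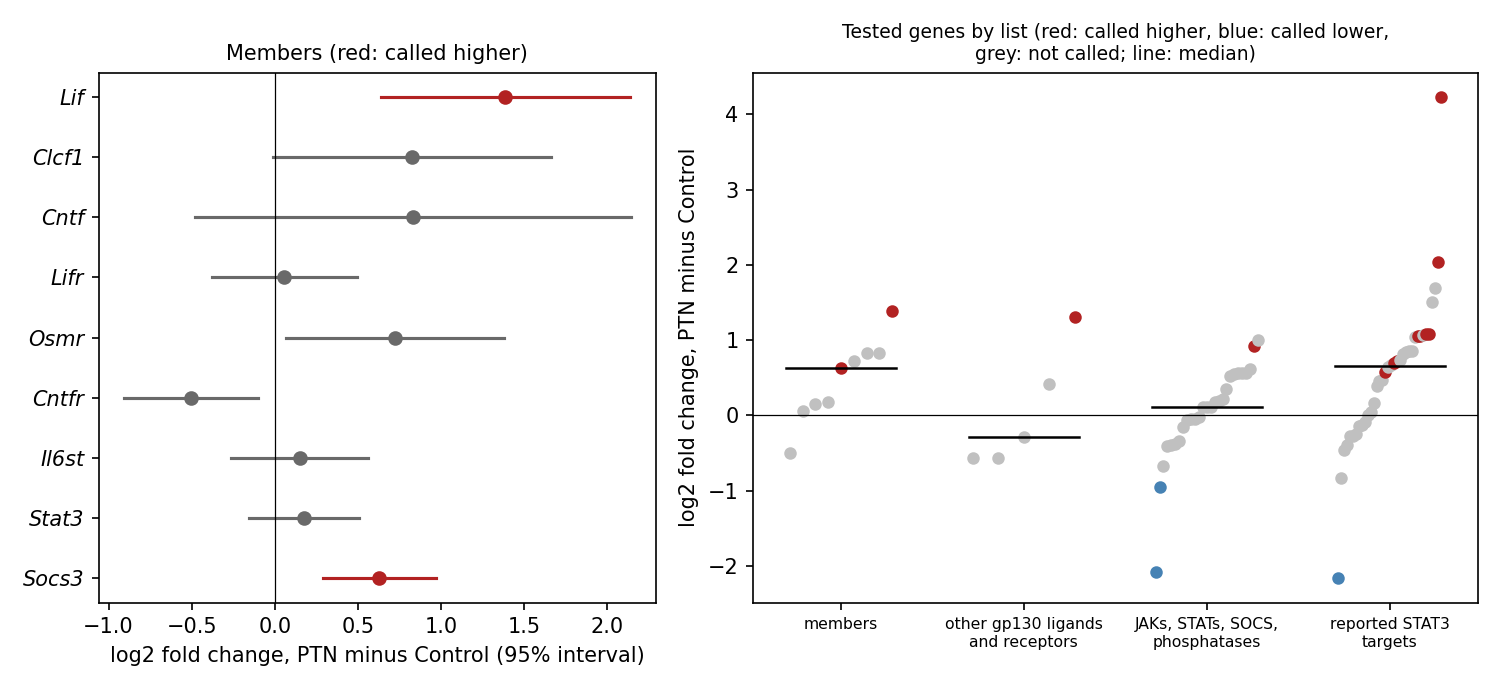
Left, log2 fold change (PTN minus Control) with its 95% interval for the 9 tested members, those called higher in red. Right, the same quantity for every tested gene of the members and the 3 other lists, red for called higher, blue for called lower, grey for not called, with a line at each list's median. Lif (1.39) and Socs3 (0.63) are the members in red, and Stat5a (-2.08) and Gfap (-2.17) are the lowest points.

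**Figure D5:**
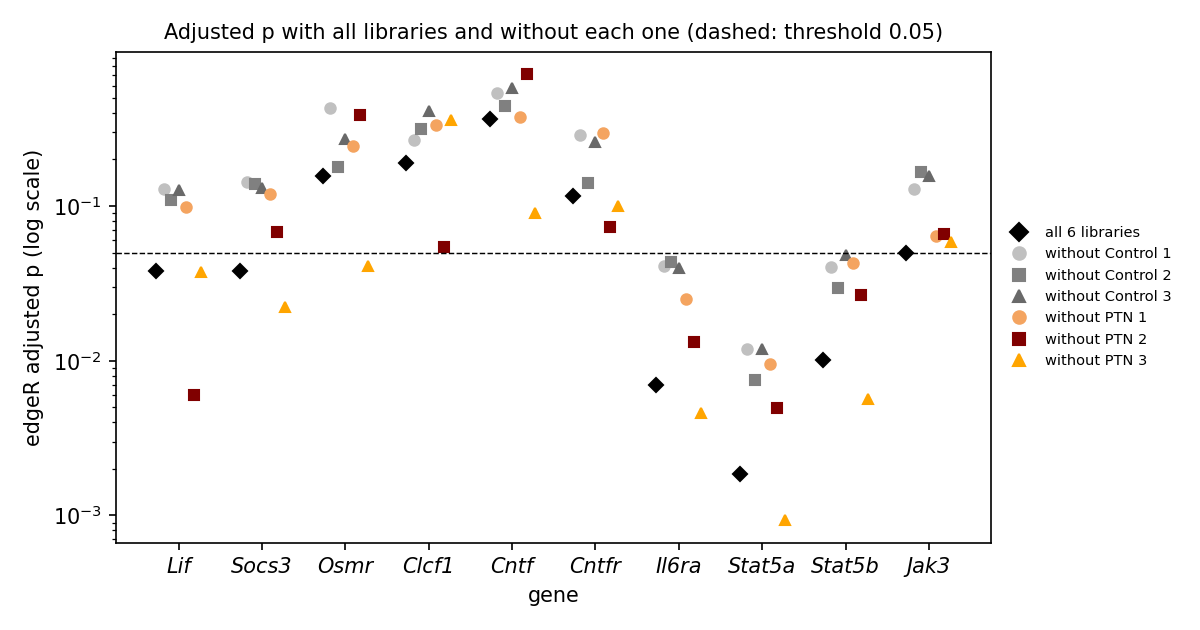
Adjusted p of edgeR on a log axis for 10 genes of the route, with all 6 libraries (black diamond) and without each library in turn, the dashed line marking 0.05. Il6ra, Stat5a and Stat5b lie under the line in every refit, Jak3 lies above it in every refit, and Lif and Socs3 lie on both sides.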

How the data were processed

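RNA of 6 libraries was sequenced, 3 PTN and 3 Control. Per the labels' protocols, it was column-purified and made into SMARTER mRNA libraries. The authors deposited 1 table holding, for each gene, expected count and FPKM columns by library. Its deposited expected counts are estimated per gene and not scaled between libraries. The FPKM values, as deposited, are per kilobase and scaled to depth. Aligner, counter, strand setting and build remain not given in the sources used here. Columns were matched to samples by group letter and replicate number, and no value column was left unmatched.

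Expected counts were rounded, filtered with edgeR's filterByExpr (13161 of 22322 genes kept), scaled by TMM and compared, PTN minus Control, with edgeR's quasi-likelihood test over the whole table (edgeR 4.0.16, R 4.3.3). Benjamini-Hochberg adjustment ran over all genes tested, with calls under 0.05. The standard error is the log2 fold change over the square root of F, and 95% intervals use the fit's degrees of freedom. Alternatives changed the scaling, the low-count filter, the threshold, the test, the libraries, the replicate block or a trend on gene length, with limma 3.58.1 and DESeq2 1.42.0. Named genes were all members, up to 6 called genes of smallest p from each other list (for the gp130 list and the JAK list, all called), and the 5 genes most like Socs3 (the member of smallest p) and Lif with a mean of at least 1 CPM, log2 values taken after adding 0.5. Predicted gene models were left out of those. Members and lists were chosen with earlier results of these data known. Promoter windows are RefSeq's.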

Additional observations from a re-analysis of the deposited data

How the results depend on the processing

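Across all genes, calls numbered 1908 by DESeq2's Wald test, 1913 at an adjusted p under 0.1, 636 past an absolute log2 change of 1 and 331 to 2177 when each library was left out, against 1052. Members called numbered 1 by limma-voom, 1 with the length trend removed, 1 past an absolute log2 change of 1 and 0 to 3 without each library, against 2. The count of 0 arose when Control 1, 2 or 3 or PTN 1 was left out. Lif kept its direction in all settings, with a log2 fold change of 1.26 by limma-voom and 1.28 with the length trend removed, both no longer called, and 1.01 to 1.70 without each library. Socs3 ranged over 0.54 to 0.71 without each library. Osmr, uncalled, ranged over 0.39, without PTN 2, to 0.93, without PTN 3, where it passed. Lifr, uncalled, turned to -0.23 and Il6st, uncalled, to -0.099 with the length trend removed, and without each library they ranged over -0.083 to 0.21 and -0.058 to 0.28. Cntf, uncalled, ranged over -0.23 to 1.23, the negative value arising without PTN 2. The cause was not tested. Genes called in the other gp130 list numbered 1 to 2 without each library, against 1. Of the JAK, STAT and SOCS list 1 was called past an absolute log2 change of 1, against 3. Of the reported STAT3 targets 18 were called by DESeq2's Wald test, 16 at an adjusted p under 0.1 and 2 to 15 without each library, against 10.

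Replicate numbers were not found to pair the libraries, since deviations from the group means correlated at -0.56, 0.35 and -0.15 over genes for numbers 1, 2 and 3. Between libraries of unlike number the correlations ran from -0.67, for Control 2 and PTN 3, to 0.62, for Control 1 and PTN 3. What these libraries share was not tested. With the replicate number as a block 1 member was called, Lif. Socs3 then had a log2 fold change of 0.63 (edgeR adjusted p = 0.12). The block also ended the calls of Cd44, Jak3, Vim and Mcl1, at edgeR adjusted p of 0.0708, 0.0754, 0.180 and 0.0829. Il6, Il11 and Osm had too few counts for a test, and whether depth limits them was not tested.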
